A study of Mus musculus with 6 samples.

Results

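Iron handling and hepcidin genes were followed in whole back skin of mice with and without exposure to a bacterial protease and house dust mite extract. The set holds 10 genes: the hepcidin genes Hamp and Hamp2, the iron exporter gene Slc40a1, the uptake genes Tfrc, Slc11a2, Slc11a1 and Steap4, the ferritin genes Fth1 and Ftl1, and the heme oxygenase gene Hmox1. They were found by symbol in a table of 17564 genes, which gave values for 9 of the 10, and all 9 passed the filter on low counts that left 15534 genes for testing. Hamp was not analysed here. The set was chosen by known role in iron biology and on earlier results of this same comparison. Differences of the 9 genes between the groups are therefore given as a description and without p-values.

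The samples were wild-type C57BL/6 skin from mice aged 8 weeks, 3 untreated and 3 treated. Skin of both groups was shaved and depilated. Treated skin then received SspA (the V8 protease of staphylococci, 3 µg) with HDM (house dust mite extract, 10 µg) on its surface, was given both again 3 days later, and was collected on day 7. For untreated skin no day of collection is stated. Whether each sample is 1 animal is not stated either, so a p-value here speaks for the spread among these libraries, part of which may be technical. No group received SspA or HDM alone. Untreated replicates 1 to 3 are written U1, U2 and U3 and treated replicates T1, T2 and T3. Levels are in scaled reads, the deposited values, in which the reads of a library are multiplied by 1 factor, and the reads behind them ranged from 4928245 in U2 to 7545567 in T3. The 7 keratinocyte marker genes were present in every library, with sums of 16490 to 17170 scaled reads in untreated and 13800 to 17240 in treated skin. In whole tissue, fewer cells of a type and less RNA per cell cannot be told apart.

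Cells take up iron bound to transferrin through the transferrin receptor (Tfrc), reduce it with STEAP enzymes, carry it into the cytosol through divalent metal transporters of the SLC11 family, store it in ferritin and release it through ferroportin (Slc40a1). Hepcidin, a small peptide hormone made mainly by the liver, binds ferroportin and causes its breakdown, so that iron stays in the cell. Mice carry a pair of hepcidin genes, of which Hamp encodes the hormone active on iron, while the role of Hamp2 is less clear. In inflamed tissue, withholding iron from microbes is a known part of defence.

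Several of these messages carry iron-responsive elements, short hairpins bound by iron regulatory proteins. In a 5′ UTR such a hairpin lets low iron block translation, and in the 3′ UTR of the transferrin receptor it protects the message from decay. The hairpins are shown because they tie the level of Tfrc message, but not that of ferritin or ferroportin message, to iron. A search of protein-coding transcripts in the GENCODE M21 annotation (build mm10) for a C, any 5 bases, the loop CAGTGN with a last base other than G, and 5 bases that pair with the first 5 found 7 sites in 4 of the 10 genes, against at least 1 site in 1.01% of 21877 protein-coding genes. Only the transcript strand was searched, and capitals mark the loop. The sites lie in the 5′ UTR of Slc40a1 (chr1:45925467-45925491, minus strand), Fth1 (chr19:9982734-9982758, plus strand) and Ftl1 (chr7:45459781-45459805, minus strand). The 4 sites of Tfrc lie in its 3′ UTR on the plus strand, at chr16:32631221-32631245, chr16:32631600-32631624, chr16:32631665-32631689 and chr16:32631712-32631736, in the order printed.
Slc40a1: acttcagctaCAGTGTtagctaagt
Fth1: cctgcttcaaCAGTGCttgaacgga
Ftl1: cttgcttcaaCAGTGTttgaacgga
Tfrc site A: ttatcggaagCAGTGCcttccataa
Tfrc site B: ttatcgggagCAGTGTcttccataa
Tfrc site C: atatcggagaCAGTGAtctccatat
Tfrc site D: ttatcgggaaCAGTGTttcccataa
Slc11a2 had no match to this strict pattern, which says only that these letters are not there.

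Hamp2 and Hamp lie 18186 bases apart on chromosome 7, in mm10 at 30922372 to 30924181 and 30942368 to 30944029, each with 3 exons in its main transcript. Their main transcripts matched at 92.4% of 420 aligned positions and shared a run of 87 identical bases, so reads could be split between them and the value of Hamp2 is uncertain to that degree. The 250 bases before the start of each gene are shown because Hamp2 had the widest difference among the 9 genes and Hamp is its close copy (RefSeq, build GRCm38.p6, both on the minus strand, chr7:30924182-30924431 for Hamp2 and chr7:30944030-30944279 for Hamp). Capitals mark TTCNNNGAA, a letter pattern of STAT sites, and GGCGCC, the core of the BMP response element.
Hamp2: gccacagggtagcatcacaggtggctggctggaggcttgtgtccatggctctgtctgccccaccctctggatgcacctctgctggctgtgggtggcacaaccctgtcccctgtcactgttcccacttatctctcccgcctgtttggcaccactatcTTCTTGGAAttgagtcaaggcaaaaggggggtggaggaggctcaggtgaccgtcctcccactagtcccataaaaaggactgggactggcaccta
Hamp: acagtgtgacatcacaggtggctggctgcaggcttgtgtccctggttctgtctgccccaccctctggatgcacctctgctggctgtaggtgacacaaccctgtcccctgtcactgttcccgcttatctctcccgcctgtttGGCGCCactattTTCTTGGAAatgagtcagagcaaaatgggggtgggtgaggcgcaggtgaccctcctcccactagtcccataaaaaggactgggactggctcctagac
The aligned windows were identical at 89.7% of 253 positions. Both held the STAT pattern as TTCTTGGAA, 94 to 86 bases before the start of Hamp2 and 97 to 89 before that of Hamp. GGCGCC was found in the Hamp window, 109 to 104 bases before the start, and not in that of Hamp2. Both patterns read the same on either strand and they do not overlap here. Of 32851 such windows of all genes, 7.02% held TTCNNNGAA and 9.59% held GGCGCC, on either strand. Windows were found for 7 of the 10 genes (9 windows). Among the others, Steap4 held TTCNNNGAA and 1 of the windows of Tfrc held GGCGCC, and no window of the 7 genes held TGACNNNGC, the core of the antioxidant response element, which 10.2% of all windows did.

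Among the 9 genes, Hamp2 was far lower and Slc11a1 about 2-fold higher in treated skin, and Hmox1 and Slc40a1 had smaller positive differences. Over the 6 libraries, the genes of transferrin-bound iron uptake lay close to their untreated levels. Scaled values of the ferritin genes overlapped between the groups, but their reads did not follow library depth, which limits that comparison. In the fit over all genes (limma, adjusted p under 0.05), 1 of the 9 was called higher and 1 lower, beside 9.26% and 7.23% of all 15534 genes and 16.5% in either direction. Untreated and treated values were apart for 3 of the 9, with 2 higher (Slc11a1 and Slc40a1) and 1 lower (Hamp2), beside 37.3% of all genes without overlap, 21.7% higher and 15.6% lower. Since the set was picked with this comparison in view, nothing is read from these shares. The median log2 fold change was 0.07 over the 9 genes and 0.03 over all genes tested, and 4 of the 9 lay within 0.1 of 0. The authors' deposited table, made from the same 6 libraries, has Hamp2 (log2 fold change -5.38) and Slc11a1 (0.92) below the authors' adjusted p of 0.05. None of the other 7 lies below it, where 14.8% of all its genes do. That table rests on the same comparison, so nothing is read from it about the set either.

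**Figure D1:**
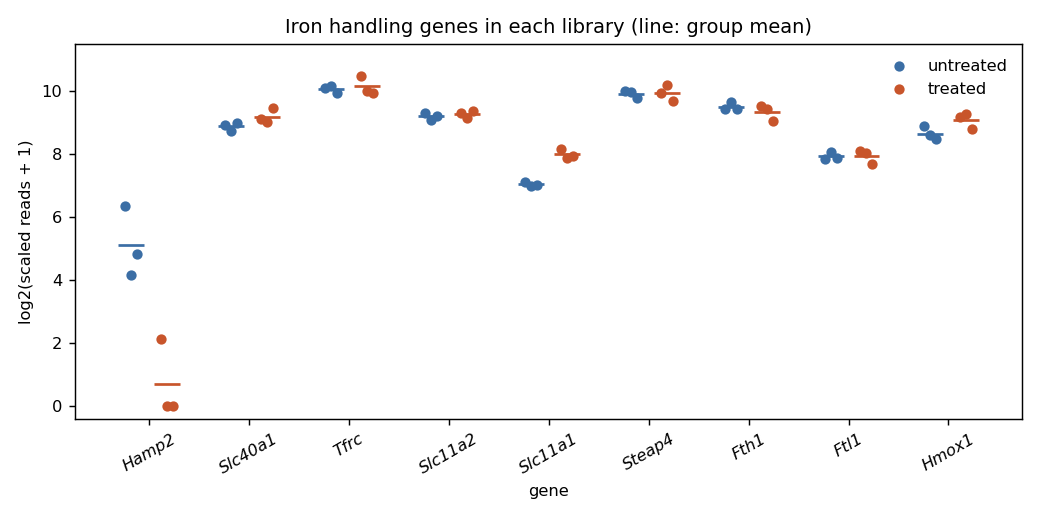
Level of the 9 iron handling genes as log2(scaled reads + 1), with 1 point per library (3 untreated, blue, and 3 treated, orange) and a line at each group mean. Hamp2 drops to 0 in 2 treated libraries, Slc11a1 shifts up without overlap, and in 6 of the 9 genes the points of the groups overlap.

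In U1, U2 and U3, Hamp2 stood at 80.2, 16.7 and 27.3 scaled reads, and in T1, T2 and T3 at 3.39, 0 and 0. Every untreated library lay above every treated one, but the untreated libraries differed widely among themselves, with U1 holding 73 of the 110 untreated reads. The treated group held 3 reads of Hamp2, all in T1. At the depth of T2 and T3, 0 reads allow a level of up to 3.27 and 2.52 scaled reads by the limit of 3 reads, and the two-sided exact 95% intervals drawn in the plot of Hamp2 reach 4.02 and 3.10 (counting error only). The ratio of untreated to treated reads, corrected for library totals, was 42.7 (exact 95% interval 14.2 to 210, counting error only), and it was 22.3 (7.05 to 113) without U1. On the log2(scaled reads + 1) scale the difference was -4.39 ± 0.73 (SE, n = 3 and 3), and -3.77 without U1. That SE was larger than the SE of 99.8% of the genes tested.

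**Figure D2:**
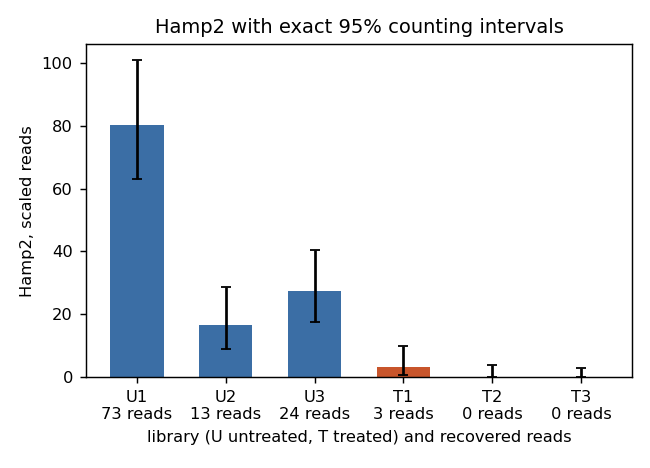
Scaled reads of Hamp2 per library as bars starting at 0, with exact 95% counting intervals and the recovered reads under each bar. U1 holds 73 reads, U2 and U3 hold 13 and 24, and T1 is the 1 treated library with any (3 reads).

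No gene searched, predicted genes being left out, came as near to this pattern as others did to Slc40a1, Tfrc or Steap4. Counting error on the few reads of Hamp2 can widen such distances. Likeness was measured as the root mean square difference of log2(scaled reads + 1) over the 6 libraries, each gene centred on its own mean, and the 3 nearest genes to Hamp2 were Mucl1 (1.00), Dab1 (1.02) and Cyp2w1 (1.11). Mucl1, a mucin-like gene, had 44, 33.5 and 57.9 scaled reads in untreated and 5.65, 3.27 and 3.36 in treated libraries. Dab1, an adaptor gene of reelin signalling, had 440, 283 and 268 against 19.2, 9.8 and 37.8. Cyp2w1 had 363, 138 and 247 against 66.7, 28.3 and 39.5. In Dab1 and Cyp2w1, as in Hamp2, U1 was the highest library, while in Mucl1 it was U3. Marker genes of hepatocytes, the cells in which hepcidin is best known, were low throughout, with a sum of 72.7 to 140 scaled reads in untreated and 45.2 to 67.2 in treated skin over the 5 of 6 with values. Both of those tested (Alb and Ttr) were called lower, while Ahsg, too low to be tested, had 4.4, 5.15 and 3.41 scaled reads in untreated and 5.65, 14.2 and 18.5 in treated libraries. None of the 5 was at 0 in every library. Sebaceous gland cell markers summed to 12380 to 13500 scaled reads in untreated and 7272 to 9153 in treated skin, with 5 of 8 called lower, none higher and none at 0 in all libraries of a group. Adipocyte markers summed to 6842 to 8459 scaled reads in untreated and 5178 to 5975 in treated skin, with 3 of 7 called lower, none higher and none at 0. The part of these lists in the difference of Hamp2 was not tested.

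Slc40a1, which encodes ferroportin, the exporter that hepcidin acts on (mm10 chromosome 1, 45908070 to 45925594), had 483, 427 and 510 scaled reads in U1 to U3 and 551, 521 and 701 in T1 to T3. The groups did not overlap, although the lowest treated library (T2) lay close to the highest untreated one (U3). The difference was 0.31 ± 0.12 on the log2 scale (SE, n = 3 and 3), and it was not called. It was 0.18 without T3 and 0.11 in the 4 libraries of like depth, which leave out the shallowest (U2) and the deepest (T3). The lowest value of Slc40a1 was in U2 and the highest in T3. The genes nearest to Slc40a1 in pattern were Sox12 (0.0287), Gtf2ird1 (0.0360) and AW554918 (0.0369), none of them called.

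Tfrc, the receptor that brings in transferrin-bound iron (chromosome 16, 32609122 to 32632794), had 1096, 1155 and 974 scaled reads in U1 to U3 and 1427, 1036 and 993 in T1 to T3. T1 stood above all other libraries, and T2 and T3 lay within the untreated range. The difference was 0.08 ± 0.14 (log2, SE), and it was -0.08 without T1 and 0.235 in the 4 libraries of like depth. Nearest to Tfrc in pattern were Srxn1 (0.0457), Txnl4b (0.0557) and Rabl3 (0.0635).

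Slc11a2, the divalent metal transporter DMT1 that moves iron out of endosomes (chromosome 15, 100392658 to 100423055), had 635, 548 and 599 scaled reads in U1 to U3 and 638, 561 and 668 in T1 to T3. The groups overlapped, and the difference was 0.07 ± 0.09 (log2, SE). Steap4, a metalloreductase whose expression is known to respond to inflammatory cytokines (chromosome 5, 7960472 to 7982213), had 1028, 1001 and 882 against 976, 1170 and 832 scaled reads. T2 was the highest and T3 the lowest library, and the difference of Steap4 was 0.02 ± 0.12 (log2, SE). That difference was -0.10 without T2 and 0.17 in the 4 libraries of like depth. The nearest genes to Steap4 were Ccdc9b (0.0462), Sap25 (0.0491) and Ifngr1 (0.0546).

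Slc11a1, also known as Nramp1, moves divalent metals out of the phagosomes of macrophages and neutrophils and so away from engulfed microbes (chromosome 1, 74375203 to 74386051). It had 136, 126 and 130 scaled reads in U1 to U3 and 285, 236 and 245 in T1 to T3. The untreated libraries lay close together and every treated library was well above them. The mean went from 131 ± 5.17 to 256 ± 25.9 scaled reads (SD, n = 3), a ratio of means of 1.96 and a log2 difference of 0.96 ± 0.12 (SE). Its values under the 17 other settings ran from 0.88 to 1.01. Of the genes tested, 95.3% had a lower log2 fold change. Slc11a1 per base of transcript was 0.420 ± 0.0162 of Slc11a2 in untreated and 0.784 ± 0.0773 in treated skin (SD, n = 3), without overlap.

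Summed markers of the cells known for Slc11a1 were also higher in treated skin. Among treated libraries T3 had the lowest neutrophil and macrophage sums. Slc11a1 had 236 scaled reads in T2 and 245 in T3 (217 and 292 recovered reads), too close to be ranked. Neutrophil markers summed to 829 to 1068 scaled reads in untreated and 4599, 3756 and 1732 in T1, T2 and T3, and 8 of the 9 tested were called higher. Ly6g, which defines mouse neutrophils, was too low to be tested. It was at 0 in all untreated libraries and at 30.5, 9.8 and 2.52 scaled reads in T1, T2 and T3. Il1r2, of the same list, was not called (log2 fold change 0.03). Monocyte and macrophage markers summed to 4808 to 6005 in untreated and 6445 to 8579 scaled reads in treated skin, with 5 of 11 tested called higher and none at 0. The part of either list in the level of Slc11a1 was not tested.

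The ferritin genes encode the heavy (Fth1, with ferroxidase activity) and light (Ftl1) chains of the shell that stores iron. Fth1 (chromosome 19, 9980600 to 9985111) had 688, 813 and 692 scaled reads in U1 to U3 and 733, 688 and 527 in T1 to T3. The highest value was in the shallowest library, U2, and the lowest in the deepest, T3. Ftl1 (chromosome 7, 45457944 to 45459886) had 230, 270 and 234 against 271, 262 and 205 scaled reads. The groups of both genes overlapped, with log2 differences of -0.18 ± 0.13 for Fth1 and 0.00 ± 0.14 for Ftl1 (SE).

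Behind these values the reads of Fth1 hardly varied. They numbered 626, 632 and 609 in the untreated and 648, 632 and 627 in the treated libraries, a 1.06-fold range, while library totals had a 1.53-fold range. Ftl1 had 209, 210 and 206 reads in the untreated and 240, 241 and 244 in the treated libraries, each group within 1.02-fold although totals differed 1.17-fold and 1.35-fold within the groups. Fth1 held 0.404 to 0.430 reads per base of transcript and Ftl1 0.214 to 0.253, and no gene of any library exceeded 0.923. The sources used here do not say whether reads at 1 position were counted once. In the 4 libraries of like depth the log2 differences were 0.04 for Fth1 and 0.20 for Ftl1, so the sign of Fth1 turned. The scaling factor of a library cancels in the ratio of Fth1 to Ftl1, which per base was 1.92, 1.93 and 1.89 in untreated and 1.73, 1.68 and 1.64 in treated libraries, without overlap. The reads of these genes did not follow depth, and whether the ratio depends on depth was not tested. T3, the deepest library, had the lowest ratio. In the 4 libraries of like depth it was 1.92 (U1) and 1.89 (U3) against 1.73 (T1) and 1.68 (T2). Ferritin genes have near-identical processed copies in the genome, and the way such reads were counted is not given in the sources used here, so both levels are uncertain. The table names Fth1 by a non-coding RefSeq transcript, NR_073181.

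**Figure D3:**
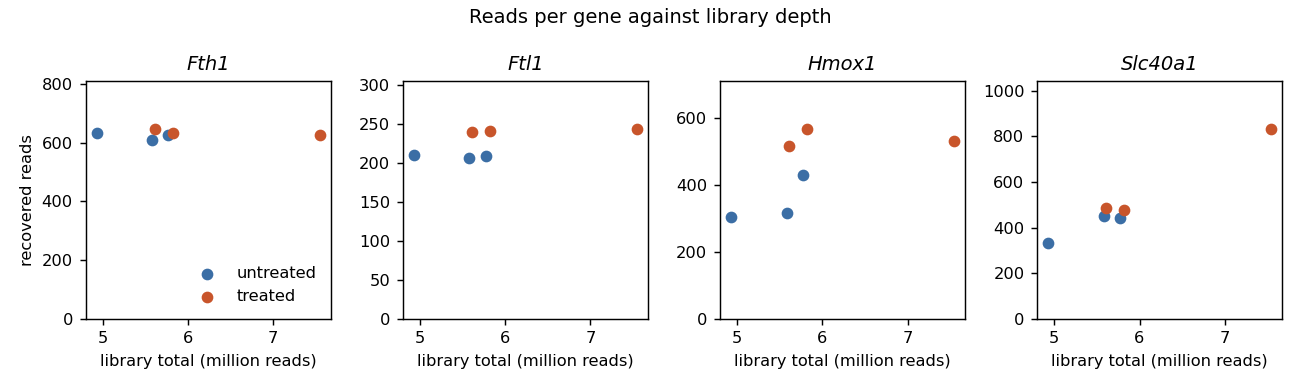
Recovered reads of Fth1, Ftl1, Hmox1 and Slc40a1 (vertical axes, starting at 0) against the total recovered reads of each library (horizontal axes), for 3 untreated (blue) and 3 treated (orange) libraries. Reads of Fth1 and, within each group, of Ftl1 stay level as depth grows, while those of Slc40a1 go from 332 in the shallowest to 834 in the deepest library.

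Hmox1 encodes the inducible heme oxygenase, which opens the heme ring and frees its iron (chromosome 8, 75093618 to 75100593). It had 470, 389 and 357 scaled reads in U1 to U3 and 581, 618 and 445 in T1 to T3. T1 and T2 lay above all untreated libraries, and T3, the deepest library, lay below U1, so the groups overlapped in scaled reads. The log2 difference was 0.43 ± 0.14 (SE), and the ratio of means was 1.35. Hmox1 was not called over the 6 libraries, and its log2 difference was 0.57 without T3 and 0.55 in the 4 libraries of like depth. Before scaling, its reads numbered 428, 302 and 314 in U1 to U3 and 514, 567 and 530 in T1 to T3, without overlap. Those reads ranged 1.10-fold among treated libraries, whose totals ranged 1.35-fold. Among untreated libraries they ranged 1.42-fold, beside 1.17-fold for totals. Whether depth affects the scaled values of Hmox1 was not tested. Its reads reached 0.361 per base.

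Levels between genes were compared per length, in scaled reads per kilobase of transcript. Untreated means ran from Fth1 (485 ± 47.2) through Steap4 (310 ± 24.9), Hmox1 (258 ± 37.3), Ftl1 (254 ± 23.1), Tfrc (216 ± 18.6), Slc40a1 (141 ± 12.6), Slc11a2 (136 ± 10.0) and Hamp2 (95.8 ± 78.8) to Slc11a1 (57.1 ± 2.26; SD, n = 3 for each). The distances between Hmox1 and Ftl1 and between Slc40a1 and Slc11a2 were smaller than their SDs, and Hamp2 varied too much to be placed. In treated skin Fth1 (431 ± 72), Hmox1 (349 ± 57.9) and Steap4 (317 ± 54.1) were highest, Hamp2 was lowest (2.62 ± 4.53) and Slc11a1 was next (112 ± 11.3). Since 6 of the 9 genes passed 0.2 reads per base in some library, and the reads of Fth1 did not grow with depth, the order at the top is less certain than that below. The ratio of Slc40a1, which exports iron, to Tfrc, which imports it, was 0.653, 0.547 and 0.775 per base in untreated and 0.571, 0.744 and 1.04 in treated libraries, and these overlapped.

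Other genes of iron biology were listed by role, 76 in all, and 75 were tested. This list too was drawn up with earlier results of these data known. Its shares and adjusted p-values are therefore given as a description. Of the 75 tested, 11 rose and 4 fell in treated skin (limma, adjusted p under 0.05), 20.0% beside 16.5% of all genes. The median log2 fold change of the 75 was 0.03, beside 0.03 over all genes. Under 17 other settings 6 of the 15 were called each time, namely Hpx, Steap1, Ltf, Lcn2, Steap2 and Bmp2. Without a trend in the spread, 6 rose and 1 fell, and of the other 9 only Smad7 passed, while with DESeq2 7 rose and 4 fell. The counts were 6 higher and 1 lower without U1, 5 and 1 without U2, 7 and 3 without U3, and 5 and 2 without either T1 or T2.

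Of 7 genes whose products bind iron, heme or siderophores outside cells or take up what is bound, 3 rose and none fell. Hpx, the plasma protein that binds free heme, was at 12.5 to 31.9 scaled reads in untreated and at 360, 308 and 93.3 in treated libraries (log2 fold change 3.43 ± 0.51 SE, limma adjusted p = 0.00505). Ltf, lactoferrin of neutrophil granules, had a mean of 1.54 ± 0.57 scaled reads in untreated and 13.6, 17.4 and 11.8 in treated libraries (2.59, limma adjusted p = 0.0058), from 4 reads in all to 42. Lcn2, which binds bacterial siderophores, had 132, 122 and 160 against 486, 460 and 233 scaled reads (1.44, limma adjusted p = 0.00946). In each of Hpx, Ltf and Lcn2, T3 was the lowest treated library. It was also the lowest treated library for the summed markers of neutrophils, of monocytes and macrophages, of keratinocytes, of skeletal muscle and of fibroblasts. For sebaceous gland cell (7272) and adipocyte (5178) markers T1 was lowest, and T3 was highest for red cell (311) and hepatocyte (67.2) markers. T3 is the deepest library, and whether depth affects such sums was not tested. The part of the cells of any list in the rises of Hpx, Ltf and Lcn2 was not tested either.

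Among 14 genes of uptake, reduction and transport, 4 rose and 1 fell. Steap1 and Steap2, relatives of Steap4, rose from 5.49, 5.15 and 3.41 to 39.6, 45.7 and 21.9 scaled reads (2.65, limma adjusted p = 0.00439) and from 62.6, 68.2 and 111 to 179, 243 and 215 (1.42, limma adjusted p = 0.00637). Slc39a14, a zinc transporter that also takes up iron not bound to transferrin, rose (0.77, limma adjusted p = 0.0302). With U2, U3, T1 or T2 left out, its adjusted p was 0.0877, 0.0835, 0.0603 and 0.0684, in that order, and it was 0.0833 without a trend in the spread. The mitochondrial iron importer Slc25a37 rose (0.34, limma adjusted p = 0.0496), and leaving out U1, U2, T1 or T2 gave 0.145, 0.139, 0.132 and 0.123. Over all 6 libraries Slc25a37 did not pass with edgeR (0.0628), DESeq2 (0.0983), TMM scaling (0.0604) or no trend (0.103), and lay at 0.0502 to 0.0519 with filled positions or another filter. Trf, transferrin, fell from 1312, 1441 and 1280 to 1092, 1182 and 954 scaled reads (-0.32, limma adjusted p = 0.0452, but 0.0534 to 0.132 without any 1 of the 6 libraries, 0.112 without a trend and 0.11 in the 4 libraries of like depth).

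Of 21 tested genes of hepcidin control, 3 rose and 2 fell. Bmp2, a ligand that drives hepcidin expression in liver, fell from 232, 336 and 303 to 155, 121 and 177 scaled reads (-0.94 ± 0.18 SE, limma adjusted p = 0.012). Hjv, hemojuvelin, a BMP co-receptor also made in skeletal muscle, fell (-0.57, limma adjusted p = 0.0268, but 0.0542 without U1, 0.0604 without U2, 0.0716 without T2 and 0.0757 without a trend). Skeletal muscle markers summed to 11480 to 13980 scaled reads in untreated and 8369 to 10620 in treated skin, with 1 of 6 called lower and none at 0. U2, the shallowest library, had the highest value of both Hjv and that sum, and T3, the deepest, had the lowest of both. Whether depth affects such sums of abundant genes was not tested. The part of skeletal muscle in the difference of Hjv was not tested either. Il6, the cytokine that raises hepcidin in inflammation, rose from 11.0, 5.15 and 6.82 to 46.4, 31.6 and 14.3 scaled reads (1.78, limma adjusted p = 0.0326). Il6 missed the threshold with U1 (0.0521), U2 (0.0979), U3 (0.0715), T1 (0.11) or T2 (0.108) left out, and without a trend (0.057). The pathway inhibitor Smad7 (0.42, limma adjusted p = 0.045) and the signal carrier Smad1 (0.28, limma adjusted p = 0.0495) rose over the 6 libraries, but neither passed without any 1 library (0.0529 to 0.146 and 0.0726 to 0.136), nor with edgeR (0.052 and 0.0624), with DESeq2 (0.138 and 0.175) or in the 4 libraries of like depth (0.126 and 0.133). With filled positions Smad7 was at 0.0508, and Smad1 was at 0.0629 with TMM scaling, 0.0904 without a trend, and 0.054 and 0.0506 with the other filters.

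Among the other roles few genes passed. Ireb2, an iron regulatory protein that binds the hairpins shown above, rose (0.27, limma adjusted p = 0.0297), 1 of 3 in its role, and missed the threshold with U1 (0.107), U2 (0.074), T1 (0.0599) or T2 (0.115) left out, with DESeq2 (0.0795) and without a trend (0.0801). The heme exporter Flvcr1 fell (-0.36, limma adjusted p = 0.03), 1 of 8 in heme transport and breakdown, and missed it with U1 (0.103), U2 (0.0862), T1 (0.0812) or T3 (0.0535) left out, without a trend (0.0618) and in the 4 libraries of like depth (0.0843). None of 3 iron oxidases, 9 genes of heme synthesis and 10 genes of iron-sulfur cluster assembly passed. The smallest p among these had Hephl1 (-0.47, limma adjusted p = 0.13, but 0.0152 without T3 and 0.0026 in the 4 libraries of like depth), Fech (-0.26, limma adjusted p = 0.0889) and Bola3 (-0.38, limma adjusted p = 0.123). The median log2 fold change of the iron-sulfur genes was -0.17, beside 0.03 over all genes tested.

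**Figure D4:**
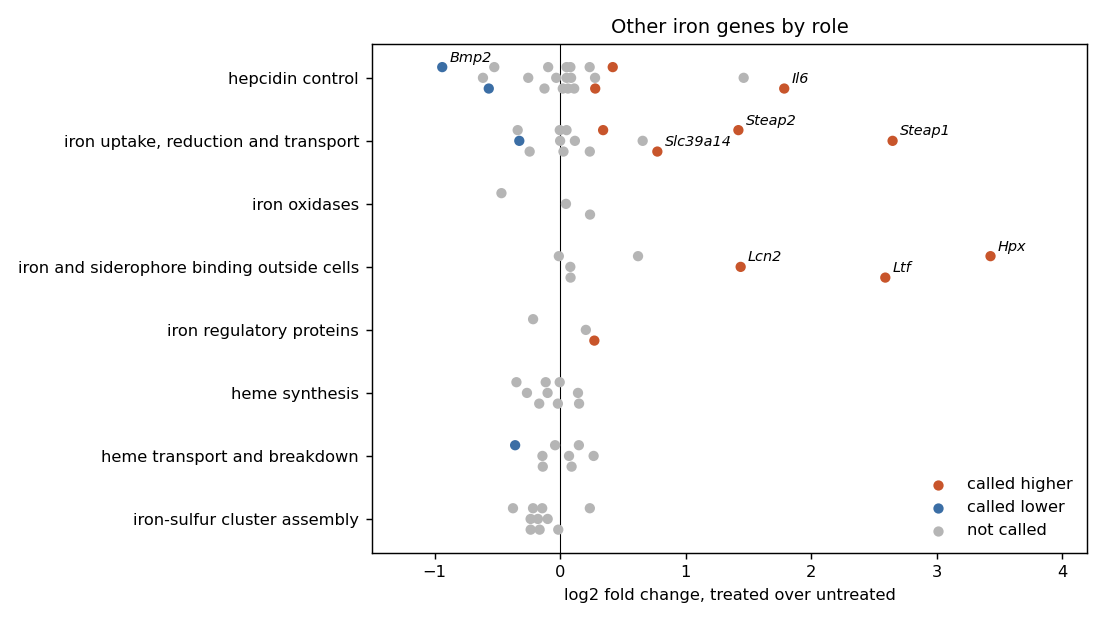
Log2 fold change (treated over untreated) of the 75 tested iron genes outside the set, by role, with genes called higher in orange, called lower in blue and not called in grey. Names mark called genes that changed by more than 0.7; Hpx (3.43), Steap1 (2.65) and Ltf (2.59) lie farthest to the right and Bmp2 (-0.94) farthest to the left.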

How the data were processed

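Stranded mRNA libraries were made from whole skin, as the labels' protocols say. The submitters' processing notes name bcl2fastq (2.20.0.422), STAR, DESeq2 and build mm10. Which read counter and filters the authors used is not given in the sources used here. In their deposited table, the authors gave 1 row per gene with a scaled signal in 6 columns, their log2 fold change, p-value and adjusted p-value, and transcript length. Each column was a whole multiple of the value of 1 read (100% of values within 0.1 of a whole read), which gave the reads per gene.

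Genes passing filterByExpr of edgeR 4.0.16 (minimum count 10, minimum total 15) went into limma 3.58.1 (R 4.3.3) on log2(scaled value + 1), fitting group alone and letting the spread follow a trend, with p adjusted by Benjamini-Hochberg over all genes tested. Fold changes on this scale understate low genes. On the recovered reads, edgeR's quasi-likelihood test called 1249 genes higher and 1204 lower. The alternatives were edgeR's quasi-likelihood test and DESeq2 1.42.0 on reads, TMM scaling, no trend, pseudocounts of 0.5 and 5, other filters, the replicate number as a block, reads estimated from filled positions, 4 libraries of like depth, and each library left out. Tested on simulated data (15534 genes, 200 changed), limma recovered 90% of genes changed 3-fold and 50% of those changed 1.5-fold. It also called 7 unchanged genes. The changed genes were not drawn from those with the fewest reads, and the simulation set no limit on reads per base. Its rates may therefore not hold for these data. Named genes were the set, each other iron gene called, and in roles with none the smallest p. Genes nearest in pattern were sought for Hamp2, Slc40a1, Tfrc and Steap4, leaving out predicted genes. The members and lists were chosen with earlier results of these data known.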

Additional observations from a re-analysis of the deposited data

How the results depend on the processing

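All 17 alternatives were run. Of 153 log2 fold changes of the 9 genes under them, 4 moved by more than the spread between replicates: Hamp2 with a pseudocount of 5 (-2.72), and Slc40a1 (0.11), Fth1 (0.04) and Ftl1 (0.20) in the 4 libraries of like depth. Hamp2, Slc11a1, Slc40a1 and Hmox1 kept their sign under all 17, while the sign of Tfrc, Slc11a2, Steap4, Fth1 and Ftl1 turned under at least 1. Since the set was chosen on this comparison, counts of its calls support nothing. Without a trend in the spread, 922 genes were called higher and 640 lower, and of the other iron genes 6 and 1. With DESeq2, 7 other iron genes were higher. With each library left out, counts over all genes ran from 597 to 1389 higher and from 518 to 1333 lower, against 1439 and 1123 over the 6 libraries; those of other iron genes ran from 5 to 10 higher and from 1 to 3 lower, and those of the set from 1 to 2 higher. In the 4 libraries of like depth 2 genes of the set were called higher. Correlations of deviations of same-numbered libraries were -0.085, -0.055 and 0.054, and those of the other pairs ran from -0.098 to 0.146. Such values from 3 libraries per group cannot settle whether replicate numbers pair the samples. With the replicate number as a block, 7 other iron genes and 2 genes of the set (Hmox1 in addition) were called higher, and other counts were within 1.5 times; Smad1 (0.0833), Smad7 (0.0767), Slc25a37 (0.076) and Ireb2 (0.0566, limma adjusted p) no longer passed. In all these cases the cause was not tested. Depth limits Hamp2, with 3 reads in treated skin.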
